A study of Mus musculus with 3 samples.

Results

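The nuclear genes for respiratory complexes III, IV and V and for cytochrome c were described in RNA from wild-type mouse cortical neurons. Members were the protein-coding genes whose symbols begin with Uqcr, with Atp5 or with Cox followed by a digit from 4 to 8, together with Cyc1 and Cycs. The rule found 45 genes among 18107 nuclear coding genes with a value: 9 of complex III, 18 of complex IV, 17 of complex V and Cycs. The study sequenced 3 control libraries, which form 1 group of wild-type genotype given the control treatment, and its title concerns DNA supercoiling and the use of topoisomerases in neurons. No other genotype, treatment or time was analysed here, so every comparison is between genes inside a library. The labels do not give the age of the animals, the cortical preparation, or whether the libraries came from separate cultures, so the SD over 3 libraries may in part be technical.

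Complex III passes electrons from ubiquinol to cytochrome c, a small soluble heme protein, and complex IV passes them on to oxygen. Both pump protons out of the mitochondrial matrix, and complex V, the ATP synthase, lets the protons return through a rotating ring and makes ATP. A few core subunits are encoded by mitochondrial DNA and the rest by nuclear genes, several of which exist in versions used by particular tissues such as muscle, lung or testis. Neurons meet most of their ATP demand through this chain. Some of these genes have also left processed copies in the genome, which are intron-free insertions of their reverse-transcribed mRNA.

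Levels are given in TPM, the length-corrected relative abundance of the deposited table, which adds to the same total in each library. The coding transcript with the largest product of TPM and exonic length, and so with the most reads, stands for its gene. Because the TPM of a library are shared over all annotated transcripts, which overlap, these values are lower than TPM scaled over genes. On the transcripts standing for coding genes, replicates 1, 2 and 3 had 33482428, 29587927 and 29083545 reads, and the values of all 45 members came out as whole reads in every library. The 8 neuronal markers were each above 1 TPM, with summed levels of 1987, 2056 and 1734 TPM in replicates 1, 2 and 3. Astrocyte markers summed to 377, 397 and 455 TPM, those of the oligodendrocyte lineage to 62.9, 47.6 and 79.3 TPM, and the microglial, endothelial and pericyte lists to at most 1.64 TPM each, with Tmem119 and Cldn5 at 0. In such bulk RNA, fewer cells of a type and less RNA per cell cannot be told apart.

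Of the 45 members, 39 had a mean of at least 1 TPM, where 61.8% of nuclear coding genes did. A mean above 100 TPM was reached by 20 members, where 1.61% of nuclear coding genes did. The median member stood at 92.7 TPM and the median nuclear coding gene at 2.91 TPM, or 8.26 TPM among those of at least 1 TPM. Levels fell into separate ranges: 32 members lay between 37.8 and 325 TPM, Atp5s lay at 9.79 ± 1.14 TPM (SD, n = 3), and 12 lay under 5 TPM. Summed, the members made up 2.11%, 1.90% and 1.95% of the TPM of nuclear coding genes in replicates 1, 2 and 3. They lie on 19 chromosomes and have short transcripts, with 30 members under 1000 exonic bases, a class that holds 9.08% of nuclear coding genes.

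**Figure D1:**
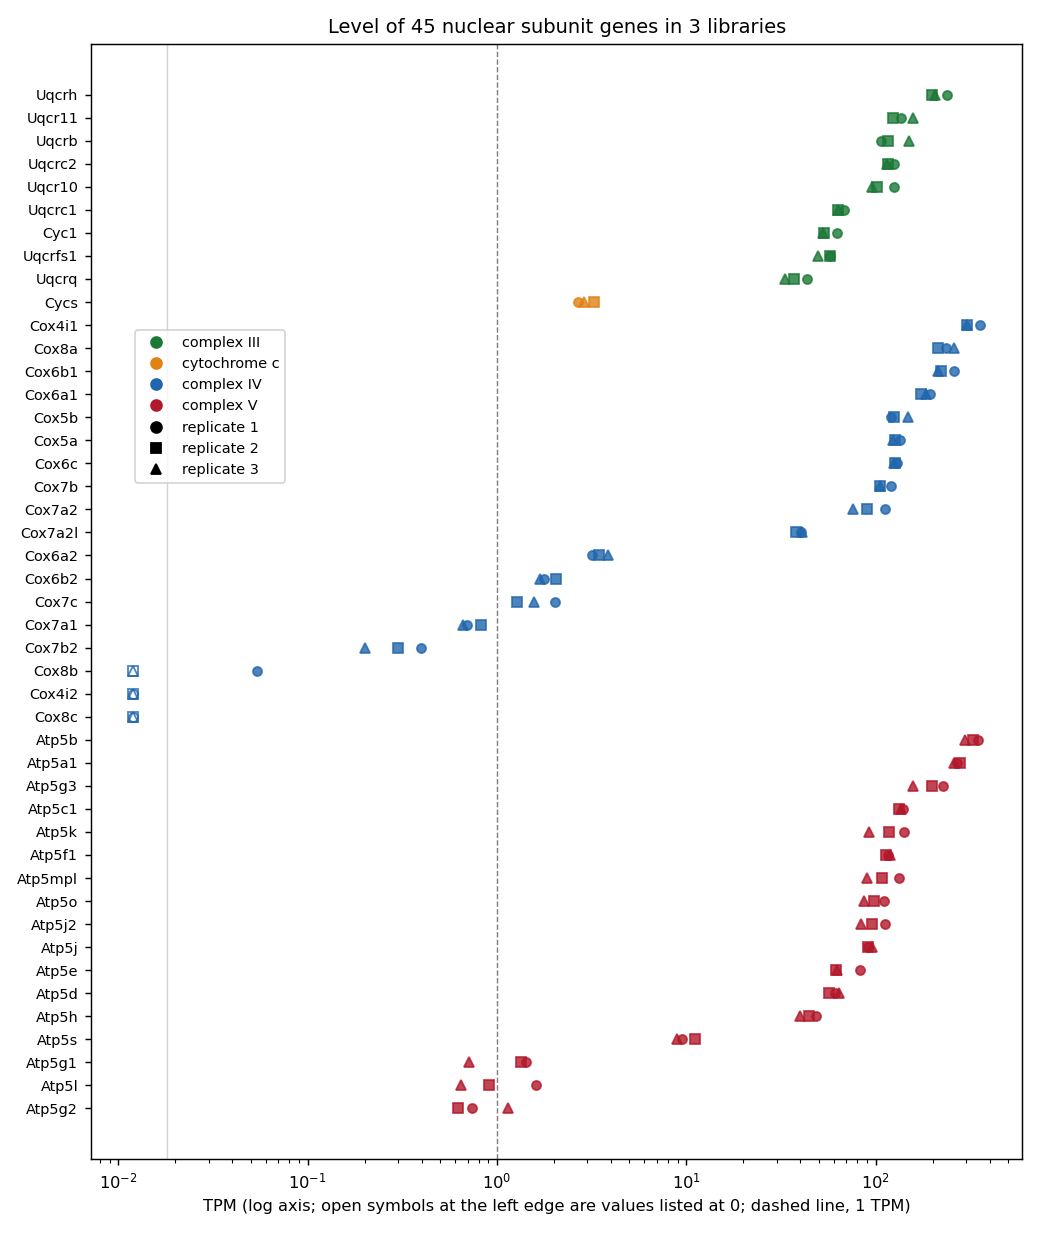
Level of each of the 45 genes in each library, in TPM on a log axis, with genes grouped by complex and ordered by mean; symbols mark the library, open symbols at the left edge mark values listed at 0, and the dashed line marks 1 TPM. The 3 libraries of a gene sit close together for most genes, 32 genes lie between 37.8 and 325 TPM, and complex IV reaches lowest, with Cox4i2 and Cox8c at 0 in all 3 libraries.

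In complex III all 9 genes exceeded 1 TPM, and their median was 101 ± 5.66 TPM (n = 3). The catalytic members are Cyc1, the heme protein cytochrome c1, and Uqcrfs1, the Rieske iron-sulfur protein. Cyc1 was at 62.7, 53.5 and 52.6 TPM in replicates 1, 2 and 3, and Uqcrfs1 at 57.5, 57.1 and 49.8 TPM, so these genes overlapped in level. The core proteins Uqcrc1 and Uqcrc2, which are present in equal number in the complex, did not have equal RNA levels. Uqcrc1 was at 67.7, 63.0 and 63.1 TPM and Uqcrc2 at 124, 116 and 115 TPM. Uqcrc1 lay below Uqcrc2 in all 3 libraries without overlap, with a log2(TPM + 0.1) difference of -0.87 ± 0.01 (exact sign-flip p = 0.25, n = 3). This direction turned when Uqcrc1 was read from its short transcript with the highest TPM, where the difference was 0.19, and with a sum over transcripts, where it was 1.64.

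With 3 libraries the two-sided exact sign-flip permutation test cannot give a p under 0.25, so no difference could reach 0.05. The same test was run on 22 differences, and 19 of them had the same sign in each library. Adjusted over the 22 by the Benjamini-Hochberg method, a p of 0.25 became 0.289.

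Among the small subunits of complex III, Uqcrh, the acidic hinge protein that helps to dock cytochrome c, was highest at 238, 197 and 206 TPM. Uqcr11 reached 139 ± 17.5 TPM, Uqcrb 125 ± 23.1 TPM and Uqcr10 107 ± 15.8 TPM (n = 3). Uqcrq, which lies beside cytochrome b, had the lowest value of the complex at 43.3, 37.0 and 33.2 TPM. That value rests on a transcript of 1521 bases, and a shorter transcript gave a higher one, as described with the transcript choice.

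Cycs encodes cytochrome c, which carries electrons between complexes III and IV and also triggers apoptosis when it leaves the mitochondrion. It was listed at 2.68, 3.24 and 2.89 TPM, from 429, 437 and 412 reads. Cyc1 was higher than Cycs in each library, by 4.22 ± 0.25 on the log2 scale or a 19.4-fold ratio (exact sign-flip p = 0.25, n = 3). Cyct, the testis cytochrome c and not a member, was at 0.030 and 0.071 TPM in replicates 1 and 2, and replicate 3 had none of its reads. Cycs is on chromosome 6 (GRCm38), from 50562563 to 50566538 on the minus strand, and its coding sequence has no 50-base stretch found only there, which is taken up with the copies.

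Complex IV held both highly expressed genes and the 5 lowest of all members. Of its 18 genes, 13 exceeded 1 TPM, and the 5 that did not were Cox4i2, Cox7a1, Cox7b2, Cox8b and Cox8c. The general forms were abundant. Cox4i1, the largest nuclear subunit of the complex, was at 356, 303 and 304 TPM and ranked second among the members by its mean of 321 ± 30.3 TPM. Cox8a was at 235, 212 and 259 TPM, Cox6b1, which sits on the side facing cytochrome c, at 259, 222 and 213 TPM, and Cox6a1 at 195, 174 and 184 TPM. Cox5a and Cox5b, which form the matrix-side part of the complex, did not differ in a common direction on the transcripts with the most reads. Cox5a was at 135, 126 and 124 TPM and Cox5b at 121, 126 and 148 TPM, and differed by -0.03 ± 0.21 on the log2 scale (exact sign-flip p = 1, n = 3). Cox5a was higher in replicates 1 and 2 and lower in replicate 3. With the transcript of highest TPM, or the shortest with at least 95% of the most reads, Cox5b was higher in all 3 libraries and the difference was -1.19, and with a sum over transcripts it was -2.39 (exact sign-flip p = 0.25 for each, n = 3). Cox6c lay at 127 ± 2.33 TPM and had the smallest relative spread of the members, a CV of 1.83%.

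Each position of complex IV with tissue forms was led by the general form in these libraries. Cox4i2, a form known from lung and from low oxygen, had no read in any library, against 13596, 9772 and 10338 reads for Cox4i1. Set against the limit of 3 reads that a count of 0 allows in each library, Cox4i1 was at least 3205-fold higher. Cox6a2, the form of heart and skeletal muscle that parvalbumin interneurons are also known to use, was at 3.17, 3.45 and 3.86 TPM from 107, 98 and 116 reads. Of the muscle forms Cox6a2, Cox7a1 and Cox8b, it alone exceeded 1 TPM. Cox6a1 exceeded it 53.2 ± 7.16-fold, or by 5.68 ± 0.19 on the log2 scale (exact sign-flip p = 0.25, n = 3). Pvalb itself was at 0.27 ± 0.15 TPM, and Kcnc1 and Kcnc2, channel genes of such interneurons, at 5.85 ± 0.83 and 8.42 ± 2.74 TPM. Striated muscle markers summed to 1.10, 0.94 and 1.04 TPM. The interneuron genes were highest in replicate 2 and Cox6a2 in replicate 3, and the part of any cell type in its level was not tested.

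Cox7a1, the muscle form of that subunit, was at 0.70, 0.83 and 0.66 TPM, and Cox7a2, the general form, at 112, 89.9 and 75.7 TPM. Cox7a2 was thus 128 ± 28.9-fold higher, and the ranges lay far apart. Cox7a2l, a related protein that joins complexes III and IV in supercomplexes, was at 40.4, 37.9 and 41.0 TPM, and Cox7a2 exceeded it by 1.20 ± 0.30 on the log2 scale (exact sign-flip p = 0.25, n = 3). With a sum over transcripts this fell to 0.16 and the sign was no longer common to the libraries (exact sign-flip p = 0.5, n = 3). The muscle form Cox8b was found with 1 read, in replicate 1, and stood at 0 in replicates 2 and 3. The testis forms were also low. Cox6b2 was at 1.77, 2.06 and 1.68 TPM, 127-fold under Cox6b1, a log2 difference of 6.90 that a sum over transcripts reduced to 3.86. Cox7b2 was at 0.40, 0.30 and 0.20 TPM, from only 11, 7 and 5 reads, and lay 393 ± 113-fold under Cox7b. Cox8c had no read in any library, and Cox8a was at least 1457-fold higher than the limit for it. All of these low forms had transcripts of which every 50-base stretch was unique in the genome.

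**Figure D2:**
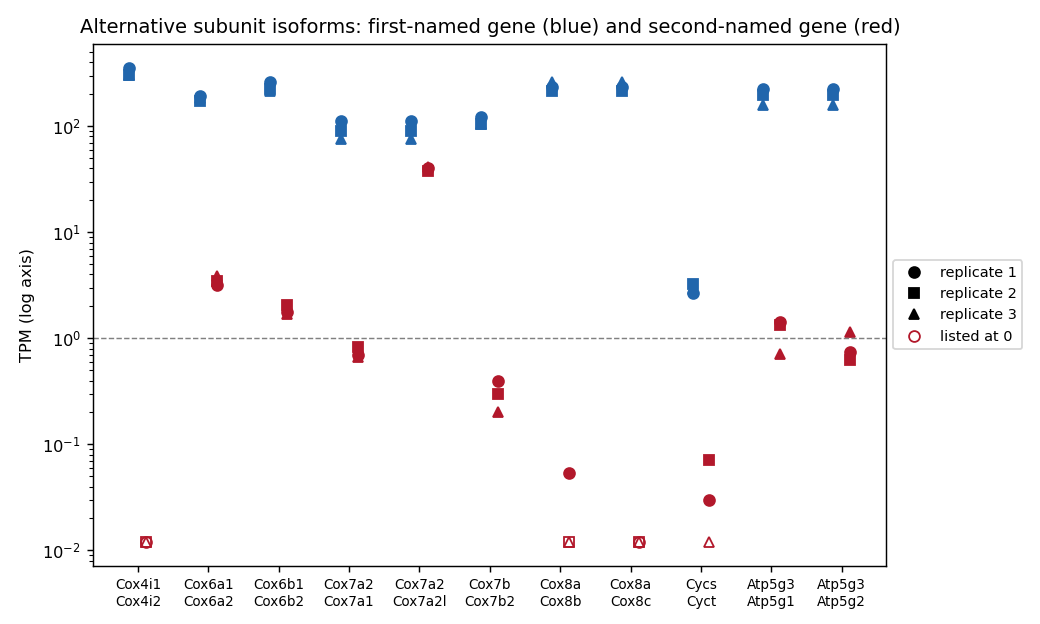
TPM on a log axis for pairs of related genes in each library, with the first-named gene of a pair in blue, the second-named in red, and open symbols for values listed at 0. The blue points lie above the red points in every pair and library, closest for Cox7a2 and Cox7a2l, and Cycs is the only first-named gene under 10 TPM, at 2.68 to 3.24 TPM.

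Cox7c, a small membrane subunit with no tissue form, departed from the general forms. It was at 2.04, 1.27 and 1.57 TPM, from 74, 39 and 51 reads, whereas Cox7b, a neighbouring kind of small membrane subunit, was at 121, 105 and 105 TPM. A subunit of complex IV that carries the symbol of complex I, Ndufa4, and that is not a member, was higher than every member at 426, 400 and 394 TPM.

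In complex V, 16 of 17 genes exceeded 1 TPM, and the median was 97.6 ± 11.97 TPM (n = 3). The catalytic head was led by Atp5b, the beta subunit that carries the active sites, on chromosome 10 from 128083273 to 128090391. It was at 349, 327 and 298 TPM and had the highest mean of the 45 genes, 325 ± 25.5 TPM, although Cox4i1 was higher in replicates 1 and 3. Atp5a1, the alpha subunit, was at 268, 278 and 259 TPM, and alpha and beta are used in equal number. Atp5b was higher than Atp5a1 in each library, by 0.27 ± 0.09 on the log2 scale (exact sign-flip p = 0.25, n = 3), and the ranges did not overlap. With the planned sum over transcripts, which counts shared reads again for each transcript, this difference became -0.78. Atp5c1, the gamma subunit of the rotating shaft, was at 139, 133 and 136 TPM, and Atp5b exceeded it by 1.25 ± 0.11 (exact sign-flip p = 0.25, n = 3). Read from the transcripts of highest TPM the gap was 0.43, and the sum turned it to -2.09. Atp5e, the epsilon subunit, reached 68.9 ± 11.9 TPM and Atp5d, the delta subunit, 60.7 ± 3.64 TPM (n = 3).

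The peripheral stalk, which keeps the head from turning, was also expressed throughout. Atp5f1, subunit b, was at 115, 114 and 119 TPM, Atp5o, the protein that joins stalk and head, at 111, 98.1 and 86.9 TPM, and Atp5j, coupling factor 6, at 90.8, 91.2 and 95.6 TPM. Atp5h, subunit d, was lowest of the stalk at 48.5, 44.2 and 40.1 TPM. A second gene model with the symbol Atp5o, which shares 243 exonic bases with it, was at 56.8 ± 8.20 TPM and was not counted as a member of its own. Of the small membrane subunits, Atp5k stood at 142, 118 and 92.5 TPM, Atp5mpl at 133, 108 and 90.4 TPM and Atp5j2 at 112, 95.4 and 83.3 TPM. All 3 were highest in replicate 1 and lowest in replicate 3. Atp5l, subunit g, was far under them at 1.604, 0.91 and 0.64 TPM, from 42, 20 and 15 reads. Atp5s, coupling factor B and not a structural subunit, was at 9.43, 11.1 and 8.87 TPM.

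The c subunit of the rotating ring is encoded by 3 genes with the same mature protein, Atp5g1, Atp5g2 and Atp5g3. Nearly all of its RNA in the table was listed under Atp5g3, at 225, 198 and 157 TPM. Atp5g1 was at 1.42, 1.34 and 0.71 TPM and Atp5g2 at 0.74, 0.62 and 1.14 TPM. Atp5g3 exceeded Atp5g1 by a log2 difference of 7.30 ± 0.26 and Atp5g2 by 7.72 ± 0.63 (exact sign-flip p = 0.25 for each, n = 3). Atp5g1 and Atp5g2 overlapped, and the difference between them, 0.42 ± 0.89, changed sign in replicate 3 (exact sign-flip p = 0.5, n = 3). This rested on the long Atp5g1 transcript. Its short transcript with the highest TPM stood at 5.42 ± 1.84 TPM, which put Atp5g1 above Atp5g2 in all 3 libraries by 2.55 and narrowed the gap to Atp5g3 to 5.18. With a sum over transcripts these differences were 2.68 and 4.96. The transcript of Atp5g3 is unique in every 50-base stretch, and those of Atp5g1 and Atp5g2 are not.

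The medians of the complexes depended on which genes were counted. Over all members, the log2 difference between complexes V and III was -0.06 ± 0.10, with a sign that was not the same in the 3 libraries (exact sign-flip p = 0.5, n = 3). The difference of complex IV from complex III was -0.74 ± 0.07 and that of complex V from complex IV 0.69 ± 0.04, each with the same sign in 3 libraries (exact sign-flip p = 0.25 for each, n = 3). Complex IV holds the 5 tissue forms under 1 TPM, and over genes of at least 1 TPM alone these differences turned to 0.29 for IV against III and to -0.33 for V against IV. Over genes with at least 90% unique 50-base stretches, they were -4.54 and 5.41, and V against III was 0.88. In complex IV that filter removed Cox8a, Cox6a1, Cox6c, Cox5b and Cox7a2l, each at 39.8 TPM or more, and Cox7c, and kept every tissue form. The complex IV median then lay between the tissue forms Cox6a2 and Cox6b2, at 3.49 and 1.84 TPM. These values of -4.54 and 5.41 thus do not describe the general forms.

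The members listed low without being a tissue form had copies elsewhere in the genome. Each coding sequence was aligned to GRCm38, and loci that covered at least 90% of it at an identity of at least 95% were counted as copies. There were 38 such copies, belonging to 14 members: 28 were annotated as processed pseudogenes, 2 as transcribed processed pseudogenes and 3 as coding genes, 4 lay inside other genes and 1 was not annotated. Atp5l had 8, Cycs 5 and Atp5h 4. Only the members were aligned, so no share over all nuclear coding genes can be set beside these counts. The similarity of the closest copy differed between members, and the following sequences show how slight the difference can be. They are coding sequences of GRCm38 in lower case without the stop codon, with the bases that differ between gene and copy in capitals. Cox7c is joined from its exons within chr13:86044816-86046904 (minus strand), and its copy Gm10012 lies at chr17:25901862-25902050 (plus strand).
Cox7c: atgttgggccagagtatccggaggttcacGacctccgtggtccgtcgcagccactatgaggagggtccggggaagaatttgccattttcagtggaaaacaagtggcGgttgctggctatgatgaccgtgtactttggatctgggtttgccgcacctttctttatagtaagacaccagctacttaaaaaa
Gm10012: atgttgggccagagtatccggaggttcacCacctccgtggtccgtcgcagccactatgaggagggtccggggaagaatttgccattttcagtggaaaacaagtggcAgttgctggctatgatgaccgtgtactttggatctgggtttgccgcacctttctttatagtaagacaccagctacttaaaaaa
A further copy of Cox7c, Gm12338 on chromosome 11 from 75599766 to 75599954, matches all 189 bases. Uqcr11 lies within chr10:80402997-80406830 (minus strand) and its closest copy, Gm16418, at chr1:166431708-166431875 (minus strand).
Uqcr11: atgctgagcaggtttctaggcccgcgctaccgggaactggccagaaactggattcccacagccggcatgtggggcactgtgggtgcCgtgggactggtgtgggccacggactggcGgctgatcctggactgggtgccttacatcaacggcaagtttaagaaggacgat
Gm16418: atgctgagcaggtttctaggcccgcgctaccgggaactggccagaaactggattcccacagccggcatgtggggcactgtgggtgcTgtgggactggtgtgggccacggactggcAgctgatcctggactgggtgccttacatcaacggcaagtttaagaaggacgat
Both pairs differ at 2 bases, but Uqcr11 has no closer copy, and 66.4% of the 50-base stretches of its coding sequence were found nowhere else.

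The 14 members with copies fell into separate ranges of level. In 5 of them, under 1% of the coding 50-base stretches were unique: Cycs, Cox7c, Atp5l and Atp5g2, each with a copy of 100% identity, and Atp5g1, with a copy that differs at 1 base. These lay between 0.83 and 2.93 TPM. In the other 9, the closest copy had an identity of 95.8% to 99.2% and between 27.1% and 97.6% of coding stretches were unique. These lay between 44.3 and 139 TPM. These ranges of level did not overlap. Whole transcripts were 10.6% (Atp5l) to 72.1% (Cox7c) unique in the 5 and 38.5% (Uqcrb) to 93.8% (Atp5k) unique in the other 9. On that measure the groups overlapped. Of the 31 members without such a copy, 7 were under 5 TPM, and all of these are forms known from muscle, lung or testis. This division was noticed after the values were seen and carries no test.

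**Figure D3:**
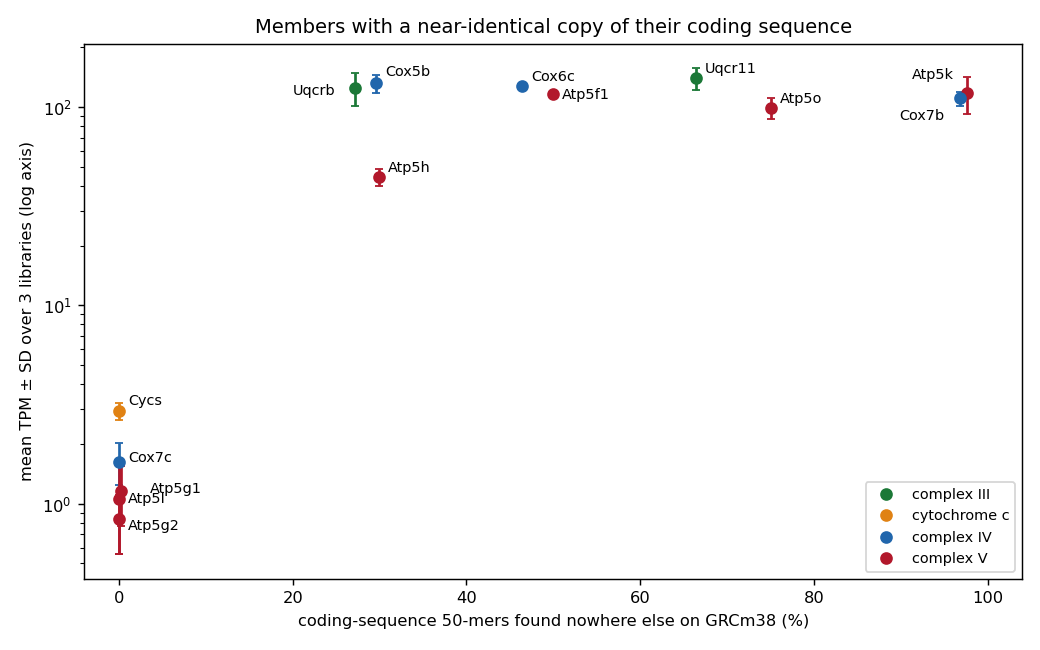
Mean TPM with SD over 3 libraries, on a log axis, against the percent of coding-sequence 50-mers found nowhere else on GRCm38, for the 14 genes with a near-identical copy, coloured by complex. The 5 genes under 1% lie between 0.83 and 2.93 TPM and the other 9 between 44.3 and 139 TPM.

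The copies themselves were listed at low levels. Of the 38, 28 had a row of their own, and 2 of these reached 1 TPM: Gm5436, the copy of Atp5o, at 2.95 TPM, and Gm12231, the copy of Atp5f1, at 1.10 TPM. The copies of Cycs that have rows summed to 0.11 TPM, those of Cox7c to 0.39 TPM and those of Atp5l to 1.35 TPM. The sources used here do not state how reads with several equally good positions were treated. Of the mitochondrial genes for subunits, mt-Co2, mt-Co3 and mt-Atp6, of which no 50-base stretch was unique in the genome, were listed at 0 in all 3 libraries. mt-Cytb, unique throughout, stood at 2336 ± 115 TPM, and mt-Co1, with 48.9% unique stretches, at 2462 ± 138 TPM (n = 3). The part of sequence sharing in any of these levels was not tested. Over the whole transcripts, 28 members had at least 90% unique 50-base stretches, where 88.6% of nuclear coding genes did.

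A partial copy was also present for Cox7a2l. Gm6969, an annotated processed pseudogene on chromosome 12, matches 50% of the Cox7a2l coding sequence at an identity of 100% in the aligned stretch from 24638810 to 24639010. Unlike each single copy above that has a row, it had a higher mean than its parent gene, at 64.4 ± 11.1 TPM against 39.8 ± 1.61 TPM (n = 3). Of the Cox7a2l coding stretches, 45.9% were unique, and reads of the shared part cannot be assigned from the table.

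The level of a member also depended on which annotated transcript stood for it. Taking the shortest coding transcript that still held at least 95% of the most reads raised 3 members by more than 1.5 times, and this alternative was chosen after the data were seen. Uqcrq rose from 37.8 ± 5.13 to 141 ± 19.1 TPM, or 3.74 times. Its longer transcript adds 1116 bases that held 0.42% of its reads. Cox5b changed from 131 ± 14.4 to 293 ± 32.7 TPM and Atp5c1 from 136 ± 3.22 to 222 ± 5.31 TPM. On this scale Cox5b had rank 3 of the 45 and Uqcrq rank 12, in place of rank 32. The 5 low members with copies of the closest kind were under 5 TPM on it too, with Atp5g1 at 1.17 TPM. With the transcript of highest TPM, Atp5g1 moved more than Uqcrq did as a ratio, from 1.16 to 5.42 TPM, though less in TPM.

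**Figure D4:**
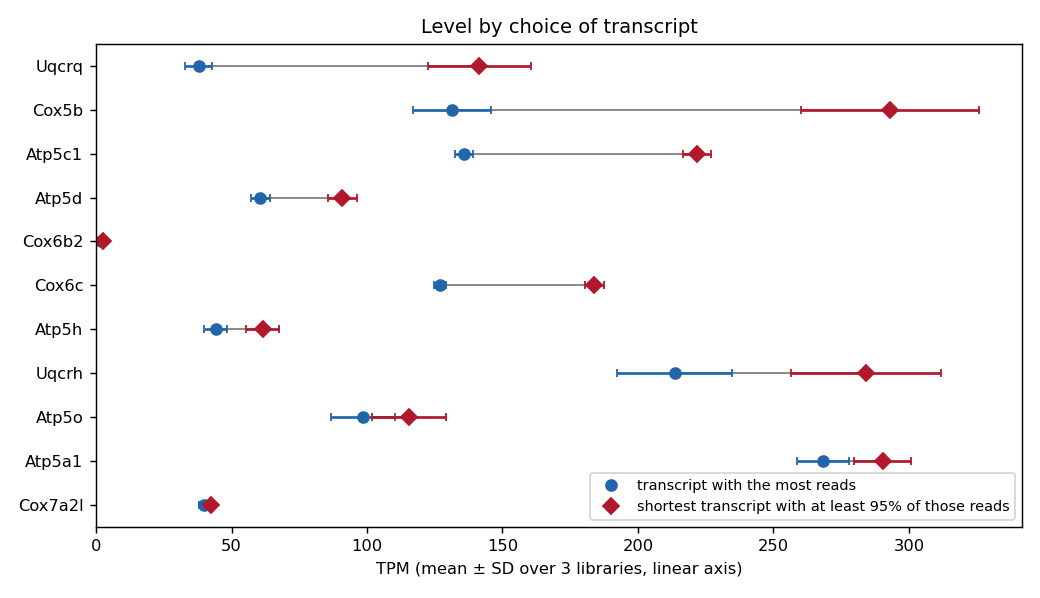
Mean TPM with SD over 3 libraries, on a linear axis, for the members whose level changed by more than 5% with the choice of transcript; circles mark the transcript with the most reads and diamonds the shortest one with at least 95% of those reads. On this axis the gap is widest for Cox5b, from 131 to 293 TPM. As a ratio the change is largest for Uqcrq, from 37.8 to 141 TPM, followed by Cox5b and Atp5c1.

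More of the members were highest in replicate 1 than in either other library. Of the 39 of at least 1 TPM, 26 were highest in replicate 1, where 28.1% of nuclear coding genes of that level were. Only 4 were highest in replicate 2, where 40.5% were, and 9 in replicate 3, where 31.4% were. The lowest value was in replicate 3 for 22 members, against 40.9% of genes, in replicate 2 for 12, against 25.4%, and in replicate 1 for 5, against 33.6%. The median log2 change from replicate 1 to replicate 3 was -0.20 over the members and -0.01 over nuclear coding genes. It was -0.31 in complex V, -0.21 in complex III and -0.08 in complex IV, and Cycs changed by 0.10. The order replicate 1, 2, 3 from high to low held for 19 of the 39 members, and its share over all nuclear coding genes was not computed.

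Among members above 100 TPM, the spread over libraries was widest for Atp5k, with a CV of 21.1%, followed by Atp5mpl with 19.3%, Uqcrb with 18.5% and Atp5g3 with 17.7%. Counting alone gives Atp5k an SD of 2.21%. Atp5k, Atp5mpl and Atp5g3 were highest in replicate 1 and lowest in replicate 3. Some members ran the other way. Uqcrb was at 107, 116 and 150.6 TPM, highest in replicate 3, as were Cox5b, Uqcr11 and Cox8a. The median CV was 9.95% over the members of at least 1 TPM and 7.88% over nuclear coding genes of that level. The subunits of complex I, which are not members, summed to 1736, 1576 and 1537 TPM, also highest in replicate 1. Summed, neuronal markers were lowest and astrocyte and oligodendrocyte lineage markers highest in replicate 3. Single markers differed: Slc1a2 of astrocytes was highest in replicate 2, and Mbp and Mog of the oligodendrocyte lineage were lowest in replicate 3. The part of cell makeup or of RNA quality in the members' direction was not tested.

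**Figure D5:**
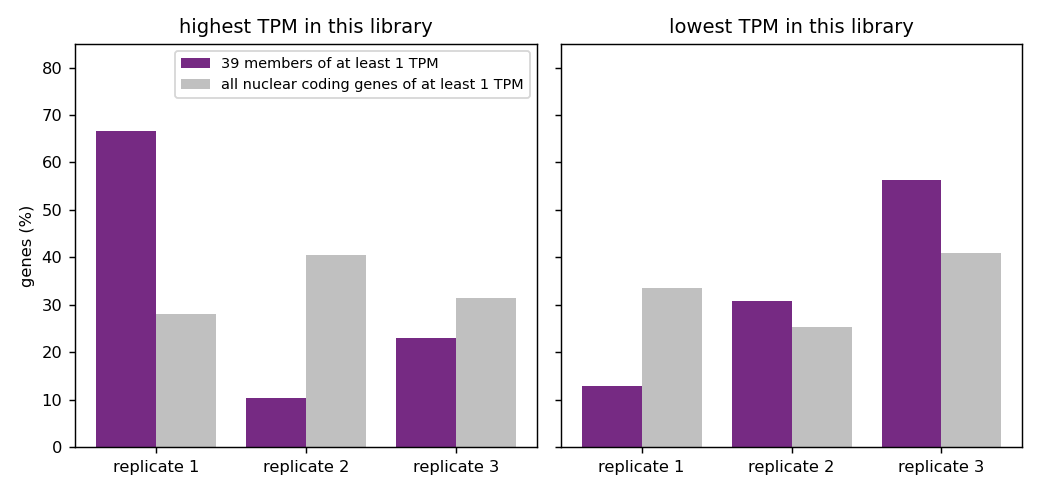
Percent of genes with their highest (left) or lowest (right) TPM in each library, for the 39 members of at least 1 TPM and for all nuclear coding genes of at least 1 TPM; bars start at 0. Of the members, 26 were highest in replicate 1, where 28.1% of coding genes were, and 22 were lowest in replicate 3, where 40.9% were.

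Genes that build these complexes were expressed at lower levels than the subunits. All 6 assembly genes of complex III, all 25 of complex IV and all 4 in the complex V list exceeded 1 TPM. Uqcc2, which acts in cytochrome b synthesis, led the complex III list at 40.5 ± 3.25 TPM, and Lyrm7, a chaperone of the Rieske protein, was lowest at 2.71 ± 0.58 TPM. In the complex IV list Coa3 was highest at 44.2 ± 5.38 TPM and the copper chaperone gene Sco1 lowest at 2.38 ± 0.19 TPM. The complex V list ran from Atpaf1, an assembly factor of the catalytic head with 35.7% unique stretches, at 1.06 ± 0.03 TPM, to Atpif1, the inhibitor that stops the enzyme from running backwards, at 243 ± 21.4 TPM. The median of the 39 members of at least 1 TPM was 12.5-fold above the median of the 35 assembly and inhibitor genes, a log2 difference of 3.62 ± 0.25 with the same sign in 3 libraries (exact sign-flip p = 0.25, n = 3). Those 39 were selected for their level, whereas the 35 were not. The median of all 45 members lay 2.11-fold above that of the 36 complex I subunits, or 1.08 ± 0.08 on the log2 scale (exact sign-flip p = 0.25, n = 3).

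The transcription factors NRF1, GABPA, which binds ETS motifs, and YY1 are known to act at promoters of respiratory genes, and their genes were at 2.89, 6.69 and 15.3 TPM. RefSeq windows of 250 bases before and 50 after the annotated start (GRCm38.p6) were available here for 34 members, and both strands were searched. The NRF1 letters, GCGC and TGCGC with any base between them, were in 7 of 34 windows, where 6.60% of 17492 coding promoters held them. The ETS letters CCGGAAG were in 9 of 34, where 11.9% held them, and the YY1 letters AAGATGGC in 2 of 34, where 3.22% held them. At least 1 of the 3 was in 15 of 34, where 19.5% held one. The NRF1 and ETS letters do not overlap in the windows shown.

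Cox6a1 and Atp5h are shown because both NRF1 and ETS letters lie in the bases before their start. The sequences are written 5′ to 3′ on the strand of the gene and end at the base before the start, with matches on either strand in capitals. They are the minus strand of chr5:115348959-115349208 for Cox6a1 and of chr11:115419920-115420169 for Atp5h.
Cox6a1: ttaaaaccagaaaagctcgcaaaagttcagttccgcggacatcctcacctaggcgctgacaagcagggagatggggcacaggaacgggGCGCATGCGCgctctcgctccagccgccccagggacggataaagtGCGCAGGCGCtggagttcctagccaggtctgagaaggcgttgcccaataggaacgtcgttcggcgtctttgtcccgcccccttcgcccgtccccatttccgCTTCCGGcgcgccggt
Atp5h: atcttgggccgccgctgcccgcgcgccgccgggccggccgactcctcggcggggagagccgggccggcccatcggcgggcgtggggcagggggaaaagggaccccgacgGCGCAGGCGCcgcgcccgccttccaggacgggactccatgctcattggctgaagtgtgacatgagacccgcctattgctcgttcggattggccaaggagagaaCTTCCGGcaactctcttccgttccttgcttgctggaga
Cox6a1, with the NRF1 letters at 2 places, stood at 184 ± 10.4 TPM, and Atp5h at 44.3 ± 4.24 TPM. Cox4i1 and Atp5a1 had no window in the table, and that of Atp5b held none of these letters. A match is a run of letters and was not tested for binding.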

How the data were processed

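Total RNA of wild-type mouse cortical neurons, column-purified, went into 3 control libraries; per the labels' protocols, the kit was KAPA's. The submitters' processing notes name STAR 2.5.3a, Subread 1.4.6 with featureCounts, FastQC 0.11.2 and the build mm10. The authors deposited TPM per annotated transcript in 1 table, and how the TPM were computed is not given in the sources used here. The DRIP-seq re-analysis was not used here.

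Rows were matched by identifier to GENCODE M21 on GRCm38, and 1643 did not match. Exon ends were set to the deposited ends where TPM times length then gave whole reads within 0.01, and otherwise the M21 length was kept. With the length so chosen, 98.7% of rows above 0 gave whole reads in each library. Members were taken by symbol, with the gene value from the coding transcript with the most reads. Members and lists were chosen with earlier results of these data known. Every member is named or counted; those of each pair and the 3 highest and 3 lowest are given per library. Differences were taken as log2(TPM + 0.1) inside each library, which understates differences of low genes, and tested with two-sided exact sign-flip permutations. The limit for a gene without reads was set at 3 reads, for counting error only. Exact 50-mers were searched on both strands of GRCm38. They were taken at every base for members, complex I subunits and the other listed genes except cell type markers, and every 10 bases for all other genes. Coding sequences were aligned with blastn 2.17.0. The read recovery, the 50-mer search and the sign-flip test were tested on simulated data. Alternatives were other pseudocounts, transcript choices, scaling and filters, and leaving out each library. Scripts ran in Python 3.11.15 with pandas 2.3.3, numpy 2.4.6 and matplotlib 3.10.9.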

Additional observations from a re-analysis of the deposited data

How the results depend on the processing

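No paired analysis was possible because the 3 libraries form 1 group, so no replicate block could be fitted. Of the 22 differences, all kept their direction with pseudocounts of 1 and 0.01, after rescaling to nuclear coding genes, with the shortest transcript holding 95% of the reads, and without replicate 1 or replicate 2. The sum of TPM over coding transcripts turned Atp5b against Atp5a1 to -0.78, Atp5b against Atp5c1 to -2.09, Uqcrc1 against Uqcrc2 to 1.64 and complex V against III to 0.76. The transcript with the highest TPM turned Uqcrc1 against Uqcrc2 to 0.19. Transcript choice moved Cox5a against Cox5b further, to -1.19 with the highest TPM or the shortest transcript and to -2.39 with the sum. The sum also took Cox6b1 against Cox6b2 from 6.90 to 3.86, Cox7a2 against Cox7a2l from 1.20 to 0.16 with no common sign (exact p = 0.5), Atp5g3 against Atp5g1 from 7.30 to 4.96 and Atp5g1 against Atp5g2 from 0.42 to 2.68. Leaving out each library in turn moved Cox5a against Cox5b between -0.13 and 0.081, the latter without replicate 3. Over genes of at least 1 TPM, complex V against IV became -0.33 and IV against III 0.29. Complex V against III became 0.88 over genes with at least 90% unique 50-mers and 0.70 over members with no coding copy, an alternative added after seeing the data. With at least 90% unique 50-mers, V against IV moved to 5.41 and IV against III to -4.54. That filter kept every tissue form of complex IV and removed several of its general forms, so its median lay among the tissue forms. The sum counts shared reads repeatedly and the filters leave fewer genes, and otherwise the cause was not tested. The minimum of 1 TPM and the uniqueness filter left no value for pairs with a removed gene. Depth limits the genes with few reads, such as Atp5l with a counting SD of 19.7% and Cox7b2 with 36.1%, and no p could pass 0.05 in any setting.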

Other observations

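Genes around the respiratory chain were abundant as well. The 4 subunits of complex II, which feeds electrons from succinate to complex III, lay between Sdhc at 21.9 ± 2.60 TPM and Sdhd at 76.9 ± 8.38 TPM (n = 3). Slc25a4, the main carrier that exchanges ADP for ATP in muscle and brain, stood at 229 ± 18.4 TPM, Ckb, the brain creatine kinase, at 141 ± 2.29 TPM and Slc25a3, the phosphate carrier, at 98.5 ± 4.14 TPM, while Slc25a31, a carrier known from testis, was at 0.05 ± 0.02 TPM. Of 11 regulators of mitochondrial genes, 10 exceeded 1 TPM, from Yy1 at 15.3 ± 1.31 TPM to Ppargc1b, a coactivator, under it at 0.80 ± 0.24 TPM.

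Measured over whole transcripts, low uniqueness and a low level did not always come together, either among the members or outside them. The division of the members with copies used coding sequences instead, so the percentages given here cannot be set against it. Among the members, Atp5l and Atp5g2 were low in both whole-transcript uniqueness and level, whereas Uqcrb, Atp5h and Cox7a2l were low in uniqueness alone. The lowest complex I subunits, Ndufab1 at 3.05 ± 0.52 TPM and Ndufb4 at 3.21 ± 0.18 TPM, had 56.3% and 58.7% unique 50-base stretches, chosen for naming after their values were seen. Ndufs3, with 57.0%, was at 25.4 ± 1.27 TPM and Slc25a5, with 38.7%, at 81.6 ± 6.23 TPM. Usmg5, a small subunit of complex V under another symbol with 20.2% unique stretches, was at 17.6 ± 1.63 TPM. Low in both were Atpaf1, with 35.7% unique stretches and 1.06 ± 0.03 TPM, and Tfb2m of the regulators, with 18.5% and 2.22 ± 0.19 TPM.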
